A study of Mus musculus with 12 samples.

Results

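The enzymes of phase II conjugation were followed through the mouse intestine, namely the UDP-glucuronosyltransferases (UGT), the glutathione S-transferases (GST) and the sulfotransferases (SULT). A gene counted as a member by the single symbol that the array annotation gave its rows. That symbol began with Ugt1, Ugt2 or Ugt3, or with Gsta, Gstk, Gstm, Gsto, Gstp, Gstt, Gstz, Mgst or Sult followed by a digit. By that rule 61 of the 31276 measured genes were members, 19 UGT, 24 GST and 18 SULT genes. The rule reads symbols and no measured value.

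These enzymes attach a polar group to drugs, dietary phenols, bile pigments, steroids and reactive electrophiles, so that the products dissolve in water and can be exported. UGT enzymes sit in the membrane of the endoplasmic reticulum and transfer glucuronic acid from UDP-glucuronic acid, GST enzymes add the tripeptide glutathione to electrophiles, and SULT enzymes are cytosolic and transfer sulfate from the donor PAPS. In the intestine they act in the epithelium as a first barrier to what is eaten and to what bacteria produce. The Ugt1a genes form a single locus in which alternative first exons are each spliced to the same downstream exons, and the Gstm genes form a cluster of closely similar copies.

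RNA from laser-microdissected intestinal mucosa of C57BL6/J mice was hybridised to 12 arrays that hold separate rows for parts of exons and for exon junctions. All animals were untreated male littermates of 4 to 6 weeks, and the allele under study was a floxed Ppard, the gene of the nuclear receptor named PPARB in the labels, which by the genotype names controls carry intact and knockouts with Cre. There were 4 groups of 3 arrays. The colon knockout and ileum knockout groups were FSPCre-PPARB -/-, with Cre under the FSP (S100a4) promoter, which is active in fibroblasts and some other cells. The colon floxed and ileum floxed groups were PPARB flox/flox with no Cre named. One label field calls the source sectioned tumours, whereas all the remaining labels name mucosa. The labels do not tie the samples of a group to separate mice beyond a number, so the p-values cover the spread among the arrays of a group, part of which may be technical.

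Levels are log2 expression values, the value of a gene on an array being the median of its rows, and a difference of 1 is a doubling. Ppard, read by rows that are not limited to the deleted part, stood at 7.27, 6.96 and 6.42 in colon knockout, 6.91, 6.67 and 6.63 in colon floxed, 6.95, 6.61 and 6.78 in ileum knockout, and 6.49, 6.15 and 6.54 in floxed ileum mucosa. Its group means were not lower in the arrays labelled knockout, and the ileum knockout arrays all lay above the floxed ones. Knockout minus floxed, it stood at 0.15 in colon (adjusted p = 0.89) and 0.39 in ileum mucosa (adjusted p = 0.711, limma with Benjamini-Hochberg adjustment), so the genotype labels are not checked by it. The region labels were borne out, since 9 of 9 ileal enterocyte markers were higher in the ileum and 6 of 8 measured colonocyte markers were higher in the colon. Of 7 hepatocyte markers none passed the test between regions, and the mean of that list lay between 3.22 and 3.63 on every array.

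The members differed in how far they stood above the array's floor. The negative control rows had medians between 2.46 and 2.71 on the 12 arrays, and the median gene had a level of 3.74. Brightness depends on the probes as well as on RNA, so these counts place members against the floor and not against each other. Over the 12 arrays 21 of 24 GST genes lay above the median gene, against 4 of 19 UGT and 6 of 18 SULT genes. None of the GST genes had a mean at or below the highest negative control median, whereas 8 UGT and 10 SULT genes did. Those dim genes included 7 of the 8 SULT2 genes, the hydroxysteroid sulfotransferases known chiefly from liver, 5 of the 8 UGT2 genes and both UGT3 genes. For them a regional or genotype difference would be compressed by background, so the tests below say little about them.

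**Figure D1:**
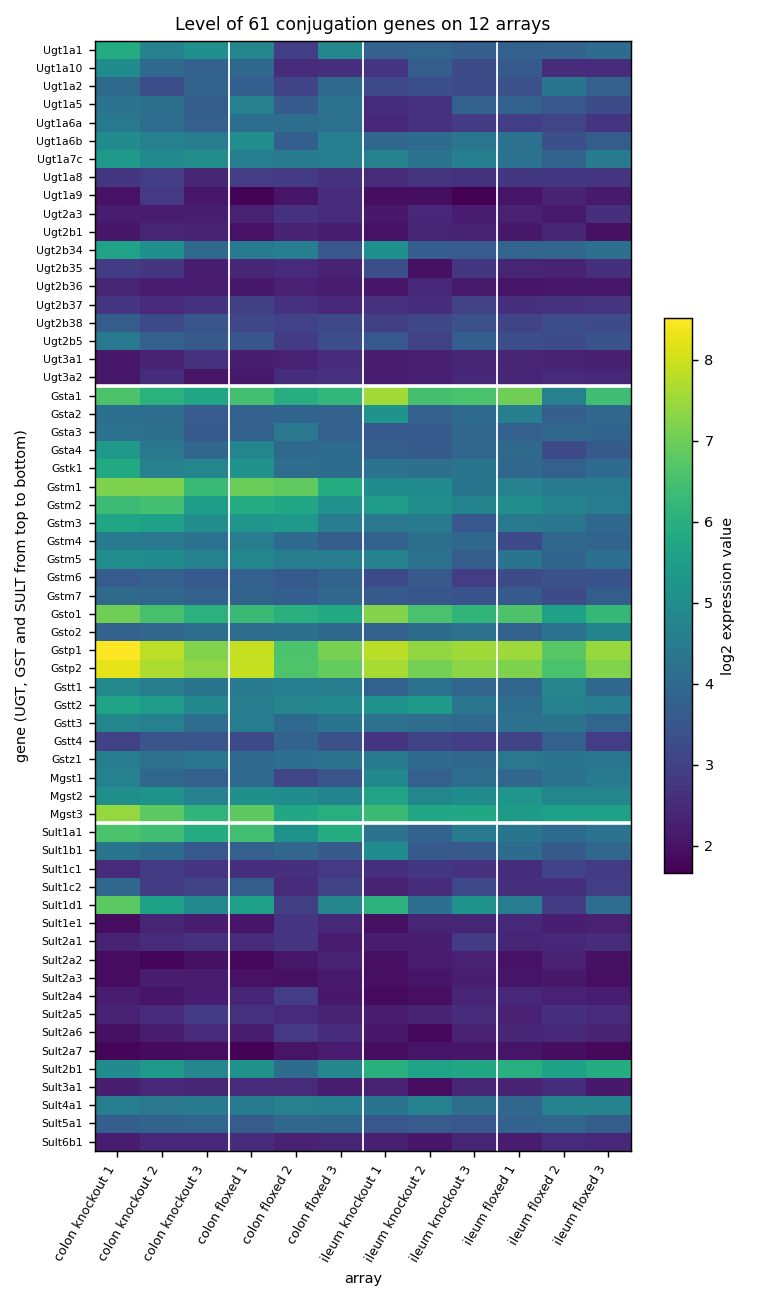
Level of each of the 61 members (rows, log2 expression value as colour) on each of the 12 arrays (columns), with the UGT, GST and SULT genes in 3 blocks from top to bottom. No GST gene is dark throughout, the SULT2 genes other than Sult2b1 are dark throughout, and Gstm1 and Sult1a1 are brighter on the 6 colon arrays than on the 6 ileum arrays.

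The main regional result concerns 6 members, and the start regions of those with a matched motif are shown because the motifs are recognised by regulators of these enzymes. The RefSeq table of promoters (GRCm38.p6) held 53 of the 61 members. Both strands of the 250 bases before each start were searched for TGACNNNGC (the core of the antioxidant response element, bound by NRF2), GCGTG (the core of the xenobiotic response element, bound by the aryl hydrocarbon receptor), GTTAAT (one arm of the palindromic HNF1 site) and TTTATNA (a CDX-type site). Capitals mark the match, and every sequence runs 5′ to 3′ towards the start of the gene.
Gstm1, chr3:108017974-108018223, minus strand, GCGTG 76 bases before the start: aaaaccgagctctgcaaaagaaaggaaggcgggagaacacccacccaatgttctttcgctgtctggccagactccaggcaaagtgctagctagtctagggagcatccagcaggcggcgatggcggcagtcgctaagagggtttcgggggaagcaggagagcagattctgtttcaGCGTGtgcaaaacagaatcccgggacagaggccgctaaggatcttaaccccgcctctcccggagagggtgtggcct
Sult1a1, chr7:126676419-126676668, minus strand, GTTAAT 232 bases before the start: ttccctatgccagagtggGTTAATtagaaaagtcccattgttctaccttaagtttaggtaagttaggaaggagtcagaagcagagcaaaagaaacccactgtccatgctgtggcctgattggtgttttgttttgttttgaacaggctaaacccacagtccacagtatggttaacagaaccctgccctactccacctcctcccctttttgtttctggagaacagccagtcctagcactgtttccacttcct
Ugt1a6a, chr1:88134559-88134808, plus strand, GTTAAT on the opposite strand 50 bases before the start: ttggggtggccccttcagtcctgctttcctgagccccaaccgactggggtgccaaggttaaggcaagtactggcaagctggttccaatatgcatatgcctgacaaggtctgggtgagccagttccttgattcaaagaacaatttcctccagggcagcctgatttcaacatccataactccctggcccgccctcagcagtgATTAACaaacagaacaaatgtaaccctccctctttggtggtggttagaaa
Sult2b1, chr7:45742479-45742728, minus strand, GCGTG 118 bases before the start: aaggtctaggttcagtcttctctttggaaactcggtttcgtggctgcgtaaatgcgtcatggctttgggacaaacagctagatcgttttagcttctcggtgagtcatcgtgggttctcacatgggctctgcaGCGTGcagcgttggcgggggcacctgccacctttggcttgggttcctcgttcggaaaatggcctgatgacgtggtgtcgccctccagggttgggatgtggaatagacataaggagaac

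The same Gstm1 match lies 231 bases before a second RefSeq start of the gene, and the other listed Sult2b1 start has no match in its window. Gstm2 and Gstm3, the remaining regional members, held none of the 4 motifs in this window. Over the members, GTTAAT was found for 13 of 53 (24.5%) against 7.49% of all genes in the table. Of the 13, 4 were neighbouring Sult2a genes of similar sequence, and Ugt1a1, Ugt1a6a, Ugt1a9 and Ugt1a10 belong to the single Ugt1a locus. The 13 are thus not independent of each other. GCGTG was found for 10 of 53 (18.9%) against 30.9% of all genes, TGACNNNGC for 4 (7.55%) against 11.5%, and TTTATNA for 3 (5.66%) against 14.7%. By single start windows rather than genes the shares of all promoters were 6.43% for GTTAAT, 28.2% for GCGTG, 10.2% for TGACNNNGC and 12.8% for TTTATNA. These are matches of letters and not mapped binding sites.

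The first comparison asked which conjugation enzymes differ between ileum and colon mucosa, over both genotypes. Gstm1, Gstm2, Gstm3, Sult1a1 and Ugt1a6a were lower in the ileum and Sult2b1 was higher. Thus 6 of 61 members (9.84%) passed an adjusted p of 0.05, against 566 of 31276 genes, or 1.81%. Of all genes 244 (0.78%) were called lower and 322 (1.03%) higher in the ileum. At an unadjusted p under 0.05 there were 18 members (29.5%), against 9.51% of all genes. In bulk tissue, fewer cells of a type and less RNA per cell cannot be told apart.

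Gstm1 encodes a mu-class transferase that conjugates epoxides and other electrophiles. Its levels were 7.18, 7.17 and 6.29 in colon knockout, 6.96, 6.84 and 5.89 in colon floxed, 5.0, 4.97 and 4.33 in ileum knockout and 4.71, 4.47 and 4.47 in ileum floxed. Every colon array lay above every ileum array. The group means were 6.88 ± 0.51 and 6.56 ± 0.59 in colon, and 4.77 ± 0.38 and 4.55 ± 0.14 in ileum (SD, n = 3; knockout first). Gstm1 was 4.18-fold lower in the ileum, a log2 difference of -2.06 (SE 0.22, 95% interval -2.53 to -1.59, adjusted p = 0.000144). The direction was read from most of its rows, 19 of 22 being lower in the ileum and 13 passing the test singly. Of all 719071 rows tested singly, 6760 (0.94%) passed in either direction.

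Gstm2 and Gstm3, further mu-class genes, showed smaller differences in the same direction. Gstm2 read 6.36, 6.47 and 5.47 in colon knockout, 5.89, 5.75 and 5.13 in colon floxed, 5.43, 5.04 and 4.75 in ileum knockout, and 5.05, 4.73 and 4.55 in floxed ileum mucosa. The lowest Gstm2 colon array, floxed 3, fell inside the ileal range, so the regions overlapped. The difference was -0.92 (SE 0.20, 1.89-fold lower in the ileum, adjusted p = 0.0333). Gstm3 read 5.71, 5.59 and 5.05, then 5.23, 5.36 and 4.54 in the colon groups, and 4.40, 4.50 and 3.52, then 4.43, 4.34 and 3.96 in the ileum groups, knockout first. Here the regions did not overlap, although colon floxed 3 at 4.54 and ileum knockout 2 at 4.50 nearly met. Gstm3 was 2.08-fold lower in the ileum (-1.05, SE 0.20, adjusted p = 0.0156).

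All 7 Gstm genes lay lower in the ileum, with a median difference of -0.61 against -0.01 over all genes, of which 47.2% lay higher in the ileum. Gstm4, Gstm5, Gstm6 and Gstm7 ran from -0.61 to -0.36 and did not pass, with adjusted p from 0.0881 to 0.444. Gstm7 also had every colon array above every ileum array, which held for 5 members and for 0.85% of all genes. Its lowest colon array, at 3.70, and its highest ileum array, at 3.69, all but met. By single rows, 131 of the 156 Gstm rows were lower in the ileum and 29 passed, against 0.94% of all rows passing. The share of all rows lying lower is not given. Gene by gene the rows were less uniform, 24 of 26 being lower for Gstm5, 22 of 26 for Gstm6 and 15 of 26 for Gstm7. Their median row differences were -0.23, -0.17 and -0.07, smaller than those of their gene values. For Gstm1, Gstm2, Gstm3 and Gstm4 the median row differences ran from -1.77 to -0.32. Because the Gstm copies are closely similar, a row for one may also take up RNA of another, and how much of the Gstm2 and Gstm3 differences is Gstm1 was not tested.

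The Gstm2 call was the least stable of these. It passed in 4 of 12 fits that each left out 1 array, with adjusted p up to 0.101, and was lost with junction rows alone (-0.58, adjusted p = 0.355). Gstm3 was lost without colon knockout 2 (adjusted p = 0.0529) and without ileum floxed 3 (adjusted p = 0.0524). Gstm1 passed in all 12.

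Sult1a1, the phenol sulfotransferase that also acts on many drugs, had levels of 6.58, 6.40 and 5.91 in colon knockout and 6.43, 5.14 and 5.90 in colon floxed mucosa. In the ileum it read 4.28, 3.81 and 4.51 in knockout and 4.31, 4.06 and 4.27 in floxed mucosa. The regions did not overlap, and colon floxed 2 was the lowest colon array. Sult1a1 was 3.62-fold lower in the ileum (-1.85, SE 0.21, 95% interval -2.30 to -1.41, adjusted p = 0.000219). Of its 19 rows 18 were lower in the ileum and 12 passed singly, and the call held without any 1 of the 12 arrays.

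Ugt1a6a, a glucuronosyltransferase of small planar phenols, gave the smallest p of the members. It read 4.44, 4.10 and 3.75 in colon knockout, 4.13, 4.14 and 4.25 in colon floxed, 2.42, 2.65 and 2.89 in ileum knockout, and 2.94, 3.08 and 2.71 in floxed ileum mucosa. The regions were separated, and the ileal values lay near the negative control medians, where a fold is compressed. Ugt1a6a was 2.56-fold lower in the ileum (-1.36, SE 0.13, 95% interval -1.64 to -1.07, adjusted p = 6.8e-05), with 7 of 7 rows lower and 4 passing singly.

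Sult2b1, which sulfates cholesterol and related sterols, went the other way. Its levels were 4.97, 5.33 and 4.84 in colon knockout, 5.15, 4.07 and 4.83 in colon floxed, 6.01, 5.63 and 5.76 in ileum knockout, and 5.96, 5.59 and 5.91 in floxed ileum mucosa. Every ileum array lay above every colon array, as in 0.959% of all genes. Sult2b1 was 1.92-fold higher in the ileum (0.94, SE 0.17, 95% interval 0.57 to 1.32, adjusted p = 0.0114). Its 26 rows ran from -0.20 to 2.49, of which 21 were higher in the ileum and 7 passed. The median of these row differences was 0.43, well below the 0.94 of the gene value, so the fold of Sult2b1 depends on how rows are summarised. The rows of Gstm1 (-3.02 to 0.22) and Sult1a1 (-2.88 to 0.12) spread at least as widely. Their median row differences, -1.77 and -2.0, lay closer to the gene values of -2.06 and -1.85. Row positions along the genes were not examined.

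Markers of other cells also differed between regions. Of 7 epithelial markers Krt20 (1.54, adjusted p = 0.00619) and Vil1 (1.44, adjusted p = 0.00192) were higher in the ileum, while Epcam (0.60), Krt8 (0.31), Cldn7 (0.16), Cdh1 (0.09) and Krt18 (-0.34) did not pass. The goblet marker Muc2 (-1.69, adjusted p = 0.0204) and the fibroblast marker Col3a1 (-0.56, adjusted p = 0.0114) were lower in the ileum, and the Paneth marker Lyz1 (2.85, adjusted p = 0.00142) was higher. Each was the only called gene of its list, of 7 goblet, 7 fibroblast and 5 Paneth markers. By direction alone, 2 of the 7 goblet (median -0.15), 2 of the 7 fibroblast (-0.13) and 4 of the 5 Paneth markers (1.25) lay higher in the ileum. All 6 of 6 smooth muscle markers (0.64) and 5 of 6 immune markers (0.34) also lay higher there, with none passing. Of all genes 47.2% lay higher in the ileum. The part of cell makeup in the members' regional differences was not tested.

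**Figure D2:**
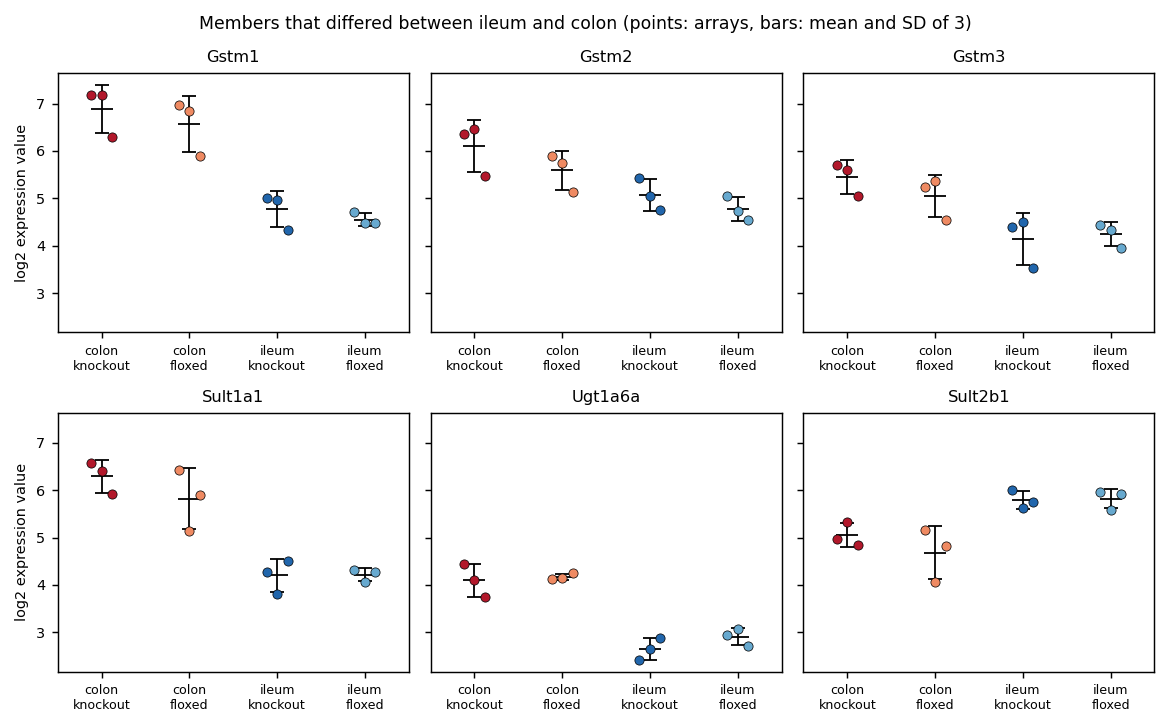
Level (log2 expression value) of the 6 members called between regions on each array, with points for arrays and bars for the mean and SD of 3 arrays per group. Gstm1, Gstm3, Sult1a1 and Ugt1a6a lie higher on all colon than on all ileum arrays, Gstm2 overlaps, and Sult2b1 lies higher on all ileum arrays. Levels of different genes come from different rows and are not to be set against each other.

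Within each genotype the regional fit called the same 3 members, Gstm1, Sult1a1 and Ugt1a6a, against 184 genes (0.588%) in floxed and 247 (0.79%) in knockout mucosa. Gstm1 differed by -2.01 in floxed (adjusted p = 0.00745) and -2.11 in knockout mucosa (adjusted p = 0.00373). Sult1a1 differed by -1.61 (adjusted p = 0.0247) and -2.10 (adjusted p = 0.00262), and Ugt1a6a by -1.27 (adjusted p = 0.00599) and -1.45 (adjusted p = 0.00152). The floxed call of Sult1a1 was lost without colon floxed 1 (adjusted p = 0.0896), colon floxed 3 (0.115) or ileum floxed 1, 2 or 3 (0.0985, 0.0803 and 0.0974). It was also lost with exon rows (0.0632), junction rows (0.0878) or only the arrays compared (0.0613), the Sult1a1 difference staying between -1.66 and -1.29 in these fits. The floxed call of Ugt1a6a was lost with the mean of rows (-0.75, adjusted p = 0.0977). Sult2b1 passed in neither genotype alone, with 1.13 in floxed (adjusted p = 0.0718) and 0.75 in knockout mucosa (adjusted p = 0.335), and with the mean of rows it passed in both (0.73, adjusted p = 0.0257, and 0.78, adjusted p = 0.0127). None of the 6 had a genotype-by-region interaction that passed.

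**Figure D3:**
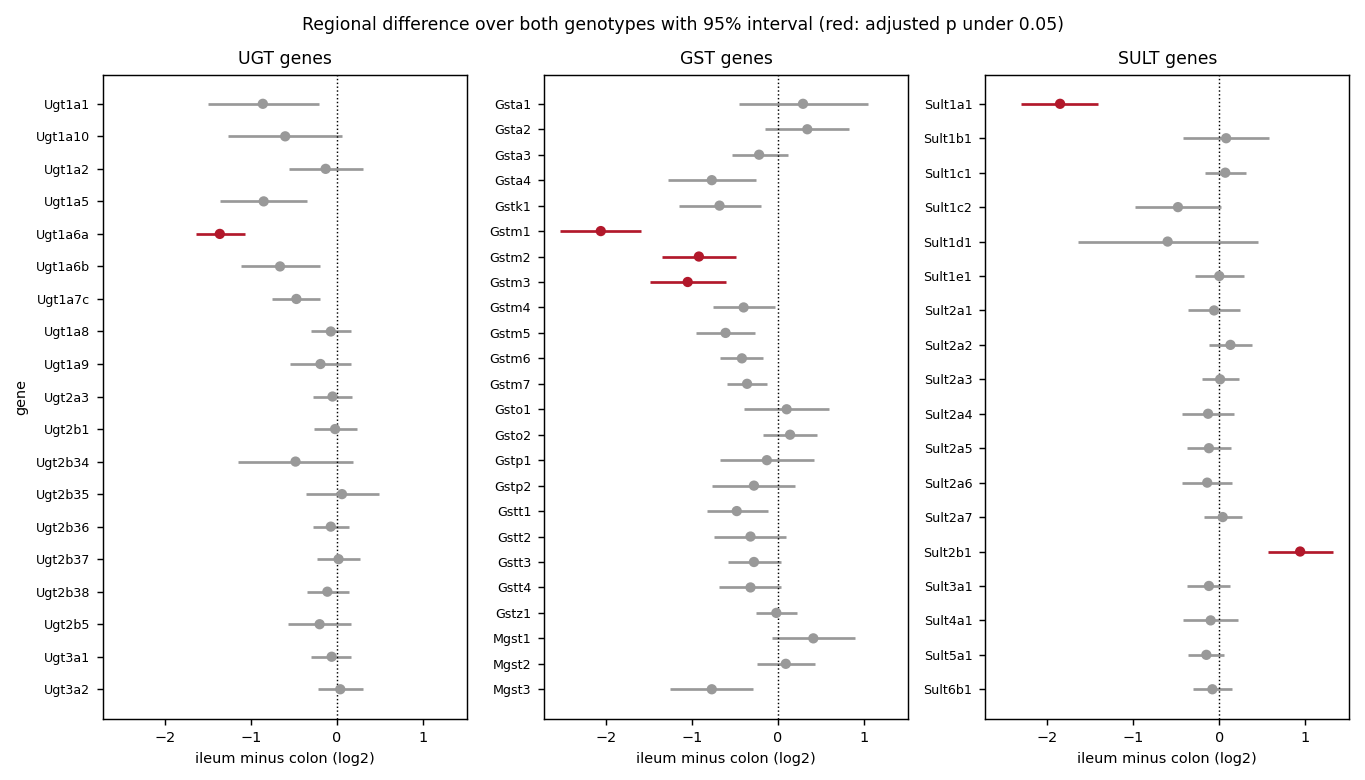
Ileum minus colon difference (log2) over both genotypes for each of the 61 members, with its 95% interval, in panels for the UGT, GST and SULT genes. The 6 red members passed an adjusted p of 0.05, all 7 Gstm and all 9 Ugt1a genes lie to the left of 0, and Sult2b1 is the only called member to the right.

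The Ugt1a locus could be read in a further way, through rows that the annotation assigns to several Ugt1a symbols at once and that were left out of the gene values. The 13 rows naming all 9 Ugt1a symbols read 8.98, 8.11 and 7.66 in colon knockout, 8.10, 5.55 and 7.5 in colon floxed, 6.60, 5.70 and 5.78 in ileum knockout, and 6.17, 4.48 and 5.74 in floxed ileum mucosa. Colon floxed 2 and ileum floxed 2 were low within their groups, and colon floxed 2 fell inside the ileal range. All 13 rows were lower in the ileum, with a median difference of -1.85, and 6 passed (smallest adjusted p = 0.0247), against 6760 of 719071 rows (0.94%). The 3 rows naming both Ugt1a6 symbols all passed, with a median of -1.38 (smallest adjusted p = 0.00266).

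Ugt1a1, which glucuronidates bilirubin, read 5.87, 4.69 and 5.10 in colon knockout, 4.79, 2.93 and 4.84 in colon floxed, 3.82, 3.90 and 3.72 in ileum knockout, and 3.77, 3.81 and 4.05 in floxed ileum mucosa. On 5 of the 6 colon arrays it lay above all ileum arrays, the exception being colon floxed 2. Its difference of -0.86 (SE 0.30, adjusted p = 0.277) did not pass, and without colon floxed 2 it was -1.17 and did (adjusted p = 0.00468). Over both genotypes the 9 Ugt1a genes read by rows of their own had a median of -0.60. All 9 lay lower in the ileum, 1 of them passing. Ugt1a2 (-0.13), Ugt1a8 (-0.07) and Ugt1a9 (-0.19), each read by 1 row, lay close to no difference. Ugt1a8 and Ugt1a9, with mean levels of 2.72 and 2.11, lay near or below the negative control medians, where a difference is compressed. The 8 UGT2 genes had a median of -0.06, with none passing, but 5 of the 8 lay at the level of the negative controls. The remaining UGT2 genes, Ugt2b34 (-0.48, with 12 of 12 rows lower), Ugt2b5 (-0.20) and Ugt2b38 (-0.11), also lay lower in the ileum. The UGT1 and UGT2 medians are therefore not a fair contrast of the families. In floxed mucosa alone Ugt1a2 (0.21) and Ugt1a9 (0.08) lay higher in the ileum.

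**Figure D4:**
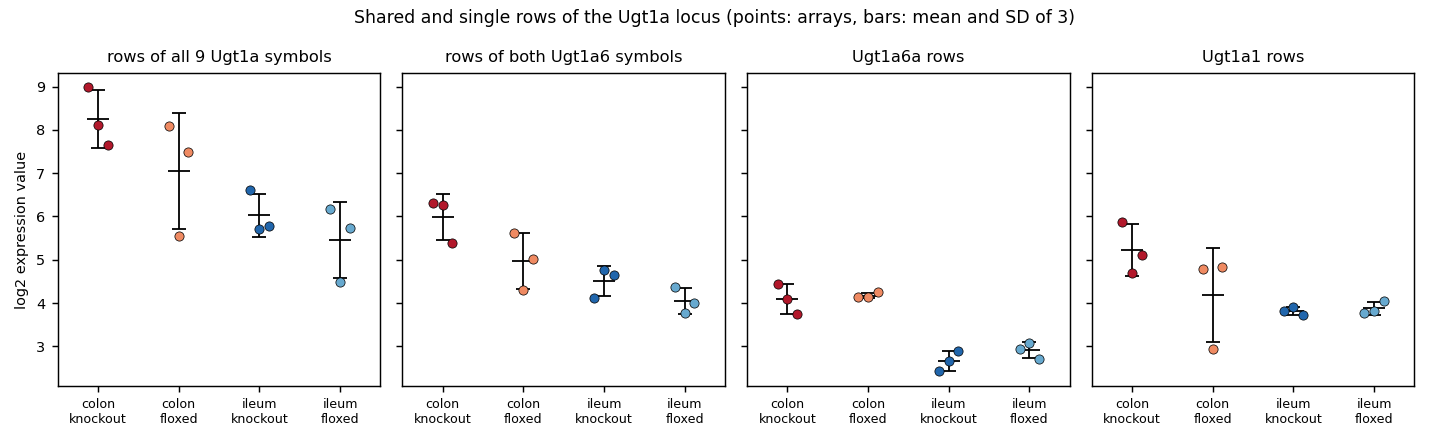
Level (log2 expression value) on each array of rows shared by all 9 Ugt1a symbols, rows shared by both Ugt1a6 symbols, and rows of Ugt1a6a and of Ugt1a1 alone, with points for arrays and bars for the mean and SD of 3. Ileum arrays lie below colon arrays in each panel apart from colon floxed 2, which lies inside the ileal range in both panels of shared rows (5.55 in the first) and below it for Ugt1a1 (2.93). Levels of different panels come from different rows and are not to be compared.

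Among the other GST genes none passed between regions. Gstp1 and Gstp2, the pi-class genes, whose near-identical sequence makes their separation uncertain, differed by -0.13 (SE 0.25) and -0.28 (SE 0.22). Gsta4, which conjugates the lipid peroxidation product 4-hydroxynonenal, the microsomal Mgst3 and the mitochondrial Gstk1 differed by -0.77 (adjusted p = 0.184), -0.77 (adjusted p = 0.144) and -0.68 (adjusted p = 0.221). Mgst1 was at 0.41 (adjusted p = 0.649). Taking the mean in place of the median of a gene's rows called 12 members against 831 of all genes (2.66%), which added Gsta4, Gstm4, Gstm6, Mgst3, Ugt1a6b and Ugt1a7c, all lower in the ileum.

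The supply of donors and the export of conjugates were set beside the enzymes through lists of companion genes. In the list for UDP-glucuronic acid supply 0 of 5 measured genes passed between regions, Ugdh, which makes this donor, being at -0.97 (adjusted p = 0.161). In the list for PAPS supply 0 of 10 passed, with the PAPS synthase Papss2 at -1.01 (adjusted p = 0.0993). The median difference was -0.25 for the first list and -0.04 for the second, against -0.01 for all genes.

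In the glutathione list 1 of 12 passed. This was Ggt1, which begins the breakdown of glutathione outside cells, at 1.46 (SE 0.15, adjusted p = 0.000158), 2.75-fold higher in the ileum. Of 7 conjugate exporters 3 passed, in both directions. Abcc2 and Abcg2, pumps of the apical membrane, were 2.36-fold (1.24, SE 0.14, adjusted p = 0.000208) and 2.98-fold (1.57, SE 0.29, adjusted p = 0.0111) higher in the ileum. Abcc3, a pump of the basolateral membrane, was 2.28-fold lower there (-1.19, SE 0.20, adjusted p = 0.00653). The Abcg2 arrays overlapped, with ileum floxed 2 at 3.55 and the highest colon array at 3.80, as did those of Abcc3, with colon floxed 2 at 5.50 and the highest ileum array at 5.78.

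Of 18 measured sensors and regulators 2 passed. Hnf4g, a nuclear receptor of the intestinal epithelium, was 2.91-fold higher in the ileum (1.54, adjusted p = 0.0025), and Pparg was 2.10-fold lower (-1.07, adjusted p = 0.0245). Nfe2l2, which encodes NRF2, differed by -0.64 (adjusted p = 0.148), Nr1i2, the pregnane X receptor, by 0.16 (adjusted p = 0.777) and Ahr, the aryl hydrocarbon receptor, by 0.00 (adjusted p = 0.999, 95% interval -0.26 to 0.26). Ppard was at -0.22 (adjusted p = 0.756). None passed among 3 deconjugating enzymes (Arsb -0.41, adjusted p = 0.114), 10 other conjugating enzymes (Ugt8a -0.37, adjusted p = 0.259) or 10 relatives of the GST folds (Clic5 0.48, adjusted p = 0.271).

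The second comparison asked whether the enzymes differ between knockout and floxed mucosa in each region. No member passed, and no gene of the 31276 did (0%), in the colon, in the ileum, over both regions or in the interaction, by limma with Benjamini-Hochberg adjustment. The smallest adjusted p of a member was 0.844 in the colon, 0.711 in the ileum, 0.462 over both and 1 for the interaction. At an unadjusted p under 0.05 there were 5 members (8.2%) against 1494 genes (4.78%) in the colon, 0 members against 2079 genes (6.65%) in the ileum, 8 members (13.1%) against 3360 genes (10.7%) over both, and 0 members against 775 genes (2.48%) for the interaction. The members' values follow as a description.

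The 5 members of the colon were all UGT genes, each higher in the knockout by its mean. Ugt1a7c, a phenol glucuronosyltransferase, read 5.33, 4.92 and 5.05 in colon knockout, 4.60, 4.50 and 4.58 in colon floxed, 4.67, 4.30 and 4.61 in ileum knockout, and 4.26, 3.83 and 4.46 in floxed ileum mucosa. The colon genotypes did not overlap and those of the ileum did. Its difference was 0.54 in the colon (95% interval 0.15 to 0.93, unadjusted p = 0.0101) and 0.35 in the ileum (-0.04 to 0.74), and over both 0.44 (adjusted p = 0.462). Without ileum floxed 2 the ileal value was 0.17.

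Ugt1a10 read 4.99, 4.01 and 3.81 in colon knockout and 3.98, 2.52 and 2.57 in colon floxed mucosa, and 2.71, 3.67 and 3.25 against 3.59, 2.53 and 2.52 in the ileum. The genotypes overlapped in both regions, and the lowest floxed values were at the floor. The differences were 1.25 (SE 0.44) and 0.33 (SE 0.44), and the colon value was 0.35 with the mean of Ugt1a10 rows and 0.03 with exon rows. Ugt2b5, of the UGT2 family, read 4.44, 3.77 and 3.56 against 3.50, 2.89 and 3.27 in the colon, where the genotypes did not overlap, a difference of 0.70 (SE 0.24, adjusted p = 0.844) that was 0.44 without colon knockout 1 and 0.14 with junction rows. In the ileum Ugt2b5 read 3.54, 3.02 and 3.70 against 3.31, 3.26 and 3.42, a difference of 0.09.

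Ugt1a1 differed by 1.03 (SE 0.42) in the colon and -0.06 in the ileum, with an interaction of -1.10 (95% interval -2.39 to 0.19, adjusted p = 1). Colon floxed 2 stood apart at 2.93, against 4.79 and 4.84 on the other floxed colon arrays, and without it the Ugt1a1 difference in the colon was 0.40 and the interaction -0.47. Ugt2b38 read 3.67, 3.18 and 3.5 against 3.13, 2.98 and 3.17 in the colon, without overlap (0.36, SE 0.16; -0.13 with junction rows), and 2.95, 3.11 and 3.36 against 3.06, 3.28 and 3.22 in the ileum. Its interaction was -0.40 (adjusted p = 1). Groups that did not overlap, knockout above, were found in the colon for 3 members (4.92%) and for 4.04% of all genes.

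In the ileum the member of smallest p was Ugt1a2, read by 1 row. It read 3.18, 3.34 and 3.20 in knockout against 3.36, 4.33 and 3.75 in floxed mucosa, without overlap, a difference of -0.57 (95% interval -1.18 to 0.04, adjusted p = 0.711). Without ileum floxed 2, the array at 4.33, the Ugt1a2 difference was -0.31, and with array background as a covariate -0.20. In the ileum the knockout lay wholly below for 5 members (8.2%) against 5.95% of all genes, and wholly above for Gstk1 and Mgst3 (3.28%) against 5.06%. In the colon it lay wholly below for 1, Ugt2a3 (1.64%), against 6.18%. Ugt2b34 read 5.62, 5.09 and 4.02 against 4.46, 4.59 and 3.51 in the colon, overlapping, a difference of 0.73 (SE 0.44) that ran from 0.37 without colon knockout 1 and 0.39 without colon floxed 3 to 1.17 without colon knockout 3, and was 0.14 with junction rows and 0.08 with the covariate.

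Sult1d1, a mouse sulfotransferase of phenols and catecholamines, had the largest genotype difference and the largest spread of the members. It read 6.78, 5.54 and 4.91 in colon knockout, 5.53, 2.95 and 4.78 in colon floxed, 6.06, 4.16 and 5.18 in ileum knockout, and 4.55, 2.86 and 4.10 in floxed ileum mucosa. The genotypes overlapped in both regions, and the floxed 2 arrays were the lowest of both regions. The difference was 1.32 in the colon, 1.30 in the ileum and 1.31 over both (SE 0.48, 95% interval 0.26 to 2.36, adjusted p = 0.462), with a within-group SD of 1.04. The colon value of Sult1d1 was 0.59 without floxed 2 and 0.80 without knockout 1, and the ileal value 0.81 and 0.83 without the arrays of the same names. With the mean of rows the difference over both was 0.58.

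Gstp1 read 8.51, 7.82 and 7.21 in colon knockout, 7.92, 6.57 and 7.11 in colon floxed, 7.79, 7.39 and 7.53 in ileum knockout, and 7.50, 6.73 and 7.45 in floxed ileum mucosa. Gstp2 followed it closely, at 8.23, 7.68 and 7.37, 7.90, 6.63 and 6.90, 7.62, 7.09 and 7.32, and 7.18, 6.58 and 7.22 in the same order. The genotypes of both genes overlapped in both regions, with differences over both regions of 0.49 (SE 0.25) and 0.48 (SE 0.22), which were 0.10 and 0.13 after quantile normalization. Gsto1, an omega-class enzyme that reduces dehydroascorbate, read 7.02, 6.51 and 6.03 in colon knockout, 6.34, 6.00 and 5.83 in colon floxed, 7.23, 6.53 and 6.13 in ileum knockout, and 6.61, 5.58 and 6.22 in floxed ileum mucosa. It too overlapped in each region, and its difference was 0.48 (SE 0.23, adjusted p = 0.469), or 0.25 after quantile normalization.

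Gstt2, of the theta class, read 5.67, 5.45 and 4.85 against 4.56, 4.77 and 4.91 in the colon and 5.14, 5.37 and 4.35 against 4.13, 4.69 and 4.59 in the ileum. The third knockout array of each region lay among the floxed arrays. The difference over both regions was 0.52 (95% interval 0.11 to 0.94, adjusted p = 0.462), and 0.17 with the mean of Gstt2 rows and 0.07 with exon rows. Gstz1, which acts in tyrosine breakdown, read 4.59, 4.25 and 4.36 against 4.01, 4.16 and 4.27 in the colon and 4.46, 4.05 and 3.97 against 4.39, 4.29 and 4.35 in the ileum. Its interaction was -0.43 (95% interval -0.91 to 0.05, adjusted p = 1), and -0.11 with the mean of rows.

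The 6 members called between regions did not pass between genotypes either. In the colon and ileum respectively, Gstm1 was at 0.32 (-0.34 to 0.98) and 0.21 (-0.45 to 0.88), and Sult1a1 at 0.47 (-0.15 to 1.10) and -0.01 (-0.64 to 0.61). Ugt1a6a was at -0.08 (-0.48 to 0.33) and -0.25 (-0.66 to 0.15), and Sult2b1 at 0.36 (-0.17 to 0.89) and -0.02 (-0.55 to 0.51). Gstm2 and Gstm3 did not pass in any genotype contrast. Each of the 95% intervals given here includes 0. The rows naming all 9 Ugt1a symbols had median differences of 0.95 in the colon and 0.48 in the ileum, with none passing.

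**Figure D5:**
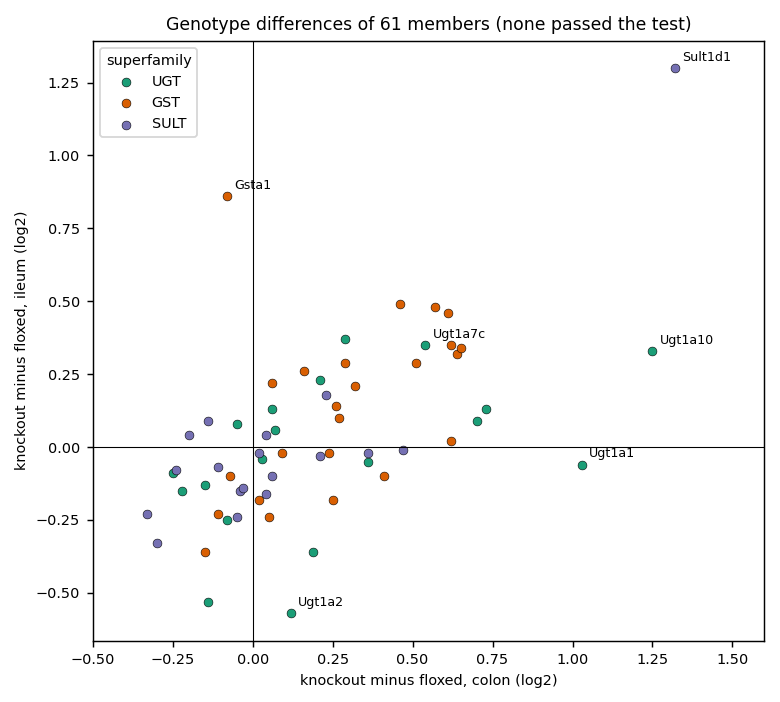
Knockout minus floxed difference (log2) of each of the 61 members in the colon (horizontal) and in the ileum (vertical), coloured by superfamily, with lines at 0. No member passed the test in either region, Sult1d1 lies farthest out at 1.32 and 1.30, and Ugt1a10 and Ugt1a1 lie at 1.25 and 1.03 in the colon and near 0.33 and -0.06 in the ileum.

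Over all 61 members 42 lay higher in the knockout in the colon (68.9%, median 0.12) and 29 in the ileum (47.5%, median -0.02), against 49.0% and 48.7% of all genes. The 31 members above the median gene and the 30 others differed in this. Of the 31, 27 lay higher in the colon (median 0.32) and 20 in the ileum (median 0.18), against 9745 of 15638 genes (median 0.08) and 8670 of 15638 (median 0.04) above the same level. Of the 30 at or below it, 15 lay higher in the colon and 9 in the ileum (median -0.08). Ileum knockout 1 stood apart from all other arrays on the first principal component of the genes (-72.3, the others lying between -35.4 and 43.9), and without it 14 of the 31 lay higher in the ileal knockout (median -0.04).

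Most markers of several cell types, though not of all, lay higher in the knockout, none of them passing the test. Over all genes 49.0% lay higher in the knockout in the colon and 48.7% in the ileum. Of the 15638 genes above the median gene, 9745 and 8670 did. In the colon and ileum respectively, 6 and 6 of 7 epithelial markers (medians 0.48 and 0.56), 7 and 7 of 7 goblet markers (0.30 and 0.67), 6 and 6 of 6 smooth muscle markers (0.24 and 0.68), 4 and 5 of 5 Paneth markers (0.28 and 1.21), 5 and 7 of 7 fibroblast markers (0.16 and 0.18) and 4 and 4 of 6 immune markers (0.32 and 0.40) lay higher in the knockout. The epithelial list ran from 7.34 to 7.93 on colon knockout arrays, 7.13 to 7.72 on colon floxed, 8.01 to 8.64 on ileum knockout and 7.38 to 8.16 on ileum floxed arrays. In the ileum the goblet list ran from 8.77 to 9.51 in knockout and 7.89 to 8.63 in floxed mucosa, the smooth muscle list from 5.55 to 7.05 and 5.11 to 5.85, and the Paneth list from 4.66 to 7.35 and 4.46 to 5.44. Of the other lists, 5 and 8 of 9 ileal enterocyte markers lay higher in the knockout (medians 0.08 and 0.48, colon first). Only 2 and 5 of 8 colonocyte markers (-0.13 and 0.02) and 0 and 2 of 3 enteric neuron and glia markers (-0.31 and 0.25) did. Among 7 hepatocyte markers 2 and 2 lay higher (-0.11 and -0.09), and among 6 exocrine pancreas markers 1 and 1 (-0.14 and -0.09). The part of these cells in the members' values was not tested.

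Array background, read from control rows whose 25-base probes hold at least 15 G or C bases, was 6.23 ± 0.20 on the ileum knockout and 6.75 ± 0.27 on the ileum floxed arrays (SD, n = 3, exact two-sided permutation p = 0.1, the smallest that 3 against 3 allows). In the colon it was 6.52 ± 0.22 and 6.80 ± 0.19 (exact p = 0.2). Between regions it was 6.66 ± 0.24 in 6 colon and 6.49 ± 0.36 in 6 ileum arrays (exact p = 0.342). In the ileum the genotypes did not overlap in background, which ran from 6.01 to 6.38 in knockout and 6.60 to 7.06 in floxed arrays. Background and genotype are therefore confounded there, and the covariate fit cannot tell them apart. With background as a covariate the difference over both regions turned negative for Sult1d1 (-0.08), Gstp1 (-0.30), Gstp2 (-0.22), Gsto1 (-0.34), Ugt2b34 (-0.48), Sult1a1 (-0.14) and Sult2b1 (-0.15), and 8 of the 31 members above the median gene lay higher in the knockout in place of 26. By region, 22 of the 31 lay higher in the colon (median 0.10) and 5 in the ileum (median -0.39) in that fit. The same fit called 12 members between regions against 3.41% of all genes, among them all 6 named above, with 347 genes called higher and 720 lower in the ileum.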

How the data were processed

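Gene expression was measured in 12 samples of microdissected mucosa. The deposited table holds log2 expression values, for which RMA and Partek are named per the submitters' processing notes, with no version or order. Of its 725678 rows 6607 were controls. Rows with 1 symbol (580167) were summarised as the median per gene and array; 1584 of 31383 symbols were updated, and 39 were kept as given. The 61 members had 913 rows, a median of 14 each, and 5 had 1 row. No detection call was used here, and the number of arrays limits precision.

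The 4 group means were fitted over all 12 arrays and 31276 genes by lmFit and eBayes of limma (version 3.58.1, R version 4.3.3; 8 residual and 4.72 prior degrees of freedom), two-sided, with Benjamini-Hochberg adjustment over all genes of a contrast and calls at 0.05. There were 7 contrasts, namely knockout minus floxed per region, over both and their interaction, and ileum minus colon per genotype and over both. Rows were also tested singly. In simulated data the regional fit over 31276 genes recovered 88 of 100 differences of 1 and 100 of 100 of 2, with 12 false calls. The simulated noise was normal and independent between genes, and the full difference was added to dim genes too. The arrays themselves need not behave so, and the genotype contrasts were not simulated.

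Members and lists were chosen with earlier results of these data known. Values per array are given for members called between regions, the 3 of highest mean in each superfamily and the 3 of smallest p in each genotype contrast. Alternatives changed the row summary, normalization, filter, samples and covariates. Same-numbered samples correlated over 0.1 in 8 of 12 pairs (r from -0.175 to 0.531). A smaller share of differently numbered pairs did so (r from -0.512 to 0.406). The correlations were of deviations from the group mean, which cancel within a group. High values for same-numbered pairs therefore push the other pairs lower, and the shares are not independent. The labels do not say what the numbers stand for, so the main fit did not use them. Fits with a replicate block were run as alternatives, and whether same-numbered arrays share a block was not tested.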

Additional observations from a re-analysis of the deposited data

How the results depend on the processing

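Gstm1, Sult1a1 and Sult2b1 passed between regions over both genotypes under every alternative run and without any 1 array, and Ugt1a6a did where it was measured, since junction rows do not hold it and the filter on dim genes removes it. Over both genotypes all Gstm genes measured stayed lower in the ileum under each setting, as did all Ugt1a genes measured. Junction rows held 1 Ugt1a gene, and the filter on dim genes left 3. The count of called members, 6, became 12 with the mean of rows, 12 with array background as a covariate and 10 with a replicate block by number, and ran from 4 to 7 when single arrays were left out. The count of called genes, 566, became 330 with junction rows only and 1067 with the background covariate, and ran from 404 to 613 without single arrays. In floxed mucosa 3 members became 1 with junction rows and 6 with the replicate block by number (2 to 3 without single arrays), and 184 genes became 98 and, with the covariate, 334 (93 to 218 without single arrays). In knockout mucosa 3 members became 6 with the mean of rows, 5 with exon rows, 8 with the covariate and 5 with a replicate block by number or by genotype and number (3 to 4 without single arrays), and 247 genes became 138 with junction rows and 415 with the covariate (135 to 285 without single arrays). The genotype contrasts and the interaction called 0 genes under every alternative, from 0 to 0 without single arrays. Signs turned only for differences that had not passed. Gsto1 between regions, 0.10, became -0.06 with the mean of rows, -0.04 with exon rows, -0.07 with junction rows and -0.25 with the covariate, and -0.03, -0.02 and -0.05 without colon knockout 3, ileum floxed 1 and ileum knockout 1 (-0.05 to 0.23 over the arrays left out). Gstp1 between regions, -0.13, became 0.04 and 0.05 without colon knockout 1 and colon floxed 1 (-0.29 to 0.05). With the background covariate the genotype difference over both regions was -0.34 for Gsto1, -0.30 for Gstp1, -0.22 for Gstp2, -0.14 for Sult1a1, -0.08 for Sult1d1, -0.15 for Sult2b1 and -0.48 for Ugt2b34, and in the ileum -0.51 for Sult1d1. The cause of these changes was not tested, and in the ileum background was confounded with genotype. The dimmest members lie at the negative control level, where differences cannot be measured.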

Other observations

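Further rows shared by several symbols were left out of the gene values. The 27 rows naming Gsta1 together with a predicted gene had a median difference of 0.30 between ileum and colon, 26 of 27 being not lower in the ileum and none passing (smallest adjusted p = 0.606). Gsta1 itself, an alpha-class gene read by 1 row, read 6.59, 6.04 and 5.72 in colon knockout, 6.46, 5.93 and 6.20 in colon floxed, 7.57, 6.50 and 6.58 in ileum knockout, and 7.02, 4.64 and 6.41 in floxed ileum mucosa. Its ileal genotype difference was 0.86 (adjusted p = 0.714), and ileum floxed 2 was the lowest array. The 18 rows of an overlapping Ugt2a pair had group means from 2.31 to 2.65, at the level of the negative controls.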
